A study of Pan troglodytes with 6 samples.

Results

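The heat shock, DNAJ and chaperonin genes of the chimpanzee were chosen by their symbols, as those that begin with DNAJA, DNAJB, DNAJC, HSPA, HSP90, HSPB, HSPD, HSPE, HSPH, CCT, PDIA, FKBP or HSF followed by the family's numbering, and the numbered BAG genes. They were 74 of the 12584 named genes measured, on 75 rows, since DNAJB13 had 2 rows of which the brighter was kept. By the known place of their proteins, 41 belonged to the cytosol and nucleus, 18 to the endoplasmic reticulum, 5 to mitochondria and 3 to vesicles and endosomes, 1 was a heat shock factor, and 6 had another or an uncertain place. HSF2BP, a partner of HSF2 and not itself a heat shock factor, and the pseudogene DNAJA1P5 matched the rule and were placed among these 6. A further 30 rows that joined such a gene with other symbols were not used. HSP90AB1, HSP90B1, HSPA1A, HSPA1B, HSPA9, HSPE1, HSF1, HSF2, PDIA3, PDIA4, FKBP5 and DNAJB1 were not analysed here.

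Molecular chaperones help other proteins fold, keep unfolded ones from clumping and hand failed ones to degradation. Hsp70 proteins grip short unfolded stretches in a cycle driven by ATP, J proteins (the DNAJ genes) bring them their clients and start the cycle, and Hsp110 and BAG proteins release the nucleotide. Hsp90 finishes the folding of kinases and receptors, chaperonins enclose a client in a ring, and the endoplasmic reticulum has its own set that also forms disulphide bonds in secreted proteins. The cytosolic set is switched on by heat shock factors, and the endoplasmic reticulum set by the unfolded protein response.

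RNA of 3 chimpanzee cerebellums and 3 chimpanzee livers was hybridised to Human Exon 1.0 arrays, whose probes were designed on the human genome. In both tissues, replicate 1 was labelled as a female of 27 years, replicate 2 as a male of 37 years and replicate 3 as a male of 30 years. The labels name no treatment, and they do not say whether the cerebellum and liver of one number came from the same animal. Values are intensities on a linear scale with the same distribution on all 6 arrays, with a median of 96.3 and a maximum of 6527, so a difference in total signal between tissues cannot be seen. Differences between tissues are given as cerebellum minus liver on the scale log2(intensity + 16.8), which understates the change of dim genes. A gene was called when limma's Benjamini-Hochberg adjusted p, taken over all 15143 features, was under 0.05.

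The arrays carried the markers of their labelled tissues. All 18 measured markers of granule cells, Purkinje cells, astrocytes and oligodendrocytes were called higher in cerebellum, and all 6 hepatocyte markers were called higher in liver. Summed over the hepatocyte markers, intensities ranged from 65.2 to 146 on the cerebellum arrays and from 20958 to 24832 on the liver arrays. Of the other lists, all 6 macrophage markers, 4 of 5 endothelial, 4 of 6 fibroblast and smooth muscle, 3 of 4 lymphocyte, 1 of 4 bile duct, 1 of 3 ciliated cell and 5 of 9 immediate-early and acute stress markers were called higher in liver and 0 in cerebellum, and no marker of any list had a mean at or below 0. In whole tissue, fewer cells of a type and less RNA per cell cannot be told apart.

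Of the 74 chaperone genes, 15 were called higher in cerebellum and 19 higher in liver, and 40 were not called. Among all features 26.7% were called higher in cerebellum and 23.9% higher in liver, against 20.3% and 25.7% of these genes, so the set as a whole stood near the background. Calls in either direction made up 50.6% of all features and 34 of the 74 genes. All cerebellum arrays lay above all liver arrays for 21 of the genes, against 31.0% of features, and the reverse held for 24, against 28.5% of features. The mean intensity of 13 genes was under 53.4, the 25th percentile of feature means, and of these only DNAJB8 was called. The median log2 difference of the 74 genes was 0.04, as was that of all features. By compartment, 26.8% of the cytosolic and nuclear genes (11 of 41) were called higher in cerebellum, the share of all features, and 12.2% (5 of 41) higher in liver. Of the endoplasmic reticulum genes 5.56% (1 of 18) were called higher in cerebellum and 55.6% (10 of 18) higher in liver, and of the 5 mitochondrial genes 0 and 3. The median log2 difference was 0.38 in the cytosolic and nuclear group, -0.91 in the endoplasmic reticulum group and -0.67 in the mitochondrial group. These differences between compartments were not tested. Among the J proteins, 5 of 13 cytosolic members were called higher in cerebellum and 1 in liver, while 0 of 8 in the endoplasmic reticulum were called higher in cerebellum and 5 in liver.

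**Figure D1:**
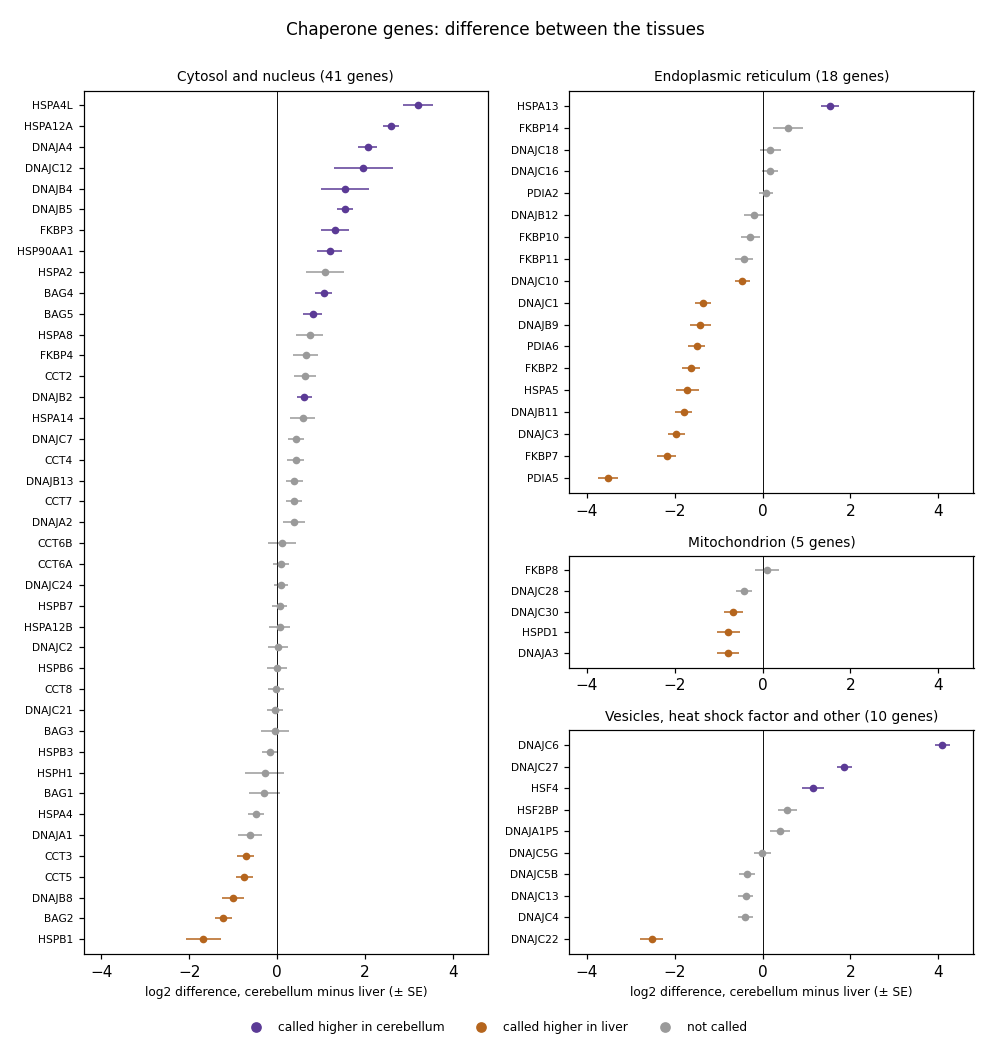
Log2 difference in intensity, cerebellum minus liver, for the 74 chaperone genes in 4 panels by compartment, with limma estimates as points, standard errors as bars and calls by colour. The endoplasmic reticulum panel runs from 1.54 for HSPA13 to -3.51 for PDIA5, with 10 of 18 genes called higher in liver.

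These counts move with the scaling. If all arrays are set to a common level of 108 general genes (ribosome, proteasome and respiratory chain), the median log2 difference of all features moves to 0.53 and all differences move toward cerebellum together. The calls were then 33 toward cerebellum and 12 toward liver, so 73.3% of called chaperone genes were higher in cerebellum, against 44.1% on the deposited scale. Among all features the same share moved to 75.4%, against 52.8%. Relative to the median of all features, the endoplasmic reticulum genes lay at -0.95 and the cytosolic and nuclear genes at 0.34, values that the alignment cannot change because it shifts all differences alike.

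The chaperones of the endoplasmic reticulum were mostly lower in cerebellum than in liver. HSPA5, which encodes BiP, the Hsp70 of this compartment and the sensor-binding protein of the unfolded protein response, had intensities of 324, 401 and 491 in cerebellum and 1779, 996 and 1371 in liver. All liver values lay above all cerebellum values. The log2 difference was -1.71 ± 0.25 (standard error, n = 3 per tissue, limma adjusted p = 0.000592). HSPA13, a truncated Hsp70 of the same compartment, went the other way, with 251, 284 and 293 in cerebellum and 61.0, 108 and 88.4 in liver. Its log2 difference was 1.54 ± 0.21 (limma adjusted p = 0.000366), the 1 call toward cerebellum among these 18 genes.

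Of the 8 J proteins of the compartment, which work with BiP or in its membrane, 5 were called higher in liver. DNAJB11, which binds unfolded secretory proteins, had 157, 181 and 196 in cerebellum and 811, 605 and 576 in liver. DNAJC3, which passes clients to BiP, had 138, 155 and 165 in cerebellum and 643, 790 and 525 in liver. Neither gene's groups overlapped, and the log2 differences were -1.80 ± 0.19 and -1.97 ± 0.20 (limma adjusted p = 9.18e-05 and 5.78e-05). DNAJB9, which is induced by the unfolded protein response, and DNAJC1, a membrane J protein that contacts ribosomes, had log2 differences of -1.42 ± 0.24 and -1.36 ± 0.19. These 2 genes, and PDIA6, FKBP2 and DNAJC10 below, were named after their values were seen. DNAJC10, a disulphide reductase, had the weakest call, with a log2 difference of -0.46 (limma adjusted p = 0.0484), which was lost when any 1 array was left out (adjusted p from 0.0653 to 0.119). The membrane J proteins DNAJB12, DNAJC16 and DNAJC18 were not called, with log2 differences of -0.20, 0.17 and 0.18, and all 3 had overlapping groups.

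Enzymes that form disulphide bonds and isomerise prolines in secreted proteins held the largest difference of the compartment. PDIA5, a protein disulphide isomerase, had 11.8, 12.9 and 10.1 in cerebellum and 394, 334 and 219 in liver. The cerebellum values lie below the pseudocount, so the size of its log2 difference of -3.51 ± 0.23 (limma adjusted p = 4.74e-06) depends on it, with -3.86 at a pseudocount of 10.2 and -3.01 at 30.3. PDIA6, of the same family, had 638, 778 and 867 in cerebellum and 2493, 1949 and 2083 in liver, a log2 difference of -1.50 ± 0.19 (limma adjusted p = 0.000242). PDIA2, known from the pancreas, stood at 15.1 ± 2.78 in cerebellum and 13.4 ± 1.63 in liver (SD, n = 3 each), dim in both. Among the prolyl isomerases, FKBP7 had 55.7, 42.7 and 53.4 in cerebellum and 379, 231 and 271 in liver, for a log2 difference of -2.18 ± 0.21 (limma adjusted p = 5.22e-05). FKBP2 differed by -1.63 ± 0.21 (limma adjusted p = 0.000246). FKBP10 and FKBP14, which act on collagens, and FKBP11 were not called, with log2 differences of -0.28, 0.57 and -0.42. Without cerebellum replicate 2, FKBP14 was called higher in cerebellum, at 0.98 (limma adjusted p = 0.00979).

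The hepatocyte, macrophage, endothelial, fibroblast, lymphocyte and acute stress markers given above were also mostly called higher in liver. Among them JCHAIN, a plasma cell gene, ranged from 2.99 to 7.13 in cerebellum and from 624 to 734 in liver. The other lymphocyte markers differed less, with CD3E at -1.02 and CD8A at -0.51 (log2). CD79A was not called, at 0.08 (limma adjusted p = 0.804). The part of any of these markers in the result was not tested. On the aligned scale 9 of the 10 calls toward liver held, and DNAJC10 stood at 0.03. When single arrays were left out, 9 genes were called higher in liver each time.

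**Figure D2:**
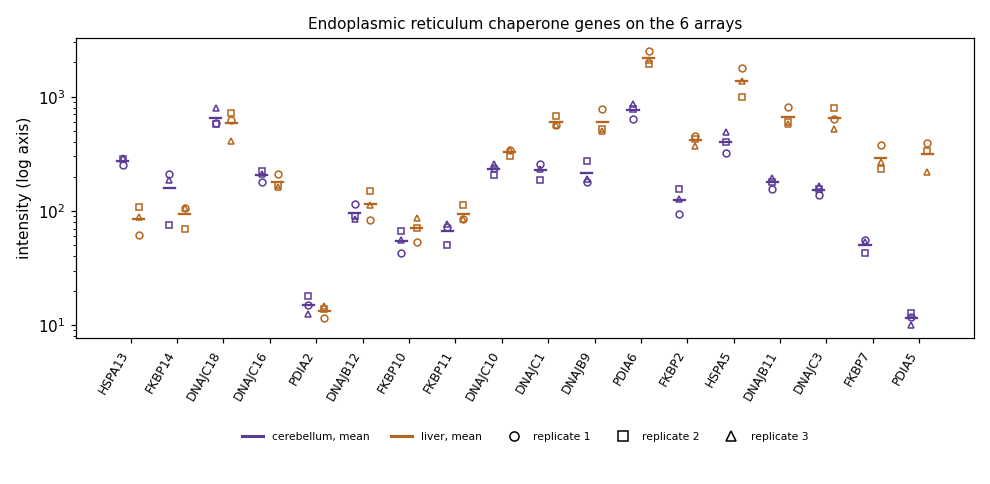
Intensity on a log axis of the 18 endoplasmic reticulum genes on each array, cerebellum on the left of each pair and liver on the right, with symbols for the replicates and lines for the means. The 3 liver points of HSPA5, DNAJB11, DNAJC3, FKBP7 and PDIA5 lie clear of the 3 cerebellum points, and HSPA13 has the opposite order.

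Genes of the same pathway outside the symbol rule were read from a list of 79 partners, of which 61 had a row of their own. Of 33 partners in the endoplasmic reticulum, 1 was called higher in cerebellum and 19 higher in liver (57.6%, against 23.9% of all features), with a median log2 difference of -0.99. Of 17 cytosolic and nuclear partners 5 were called higher in cerebellum (29.4%, near the 26.7% of all features) and 1 higher in liver. XBP1, a transcription factor of the unfolded protein response, had 129, 134 and 140 in cerebellum and 1114, 1026 and 1183 in liver. Its log2 difference of -2.89 ± 0.16 (limma adjusted p = 1.97e-06) was the largest among all partners. ERN1, which encodes the sensor IRE1 that splices XBP1 mRNA, differed by -1.78, EDEM1, which steers misfolded glycoproteins to degradation, by -2.75, and SIL1, the nucleotide exchange factor of BiP, by -2.52. HYOU1, the Hsp110 of this compartment, and CALR, the lectin chaperone calreticulin, differed by -1.55 and -1.86. The other sensors were not called. EIF2AK3, which encodes PERK, differed by 0.12 and ATF6 by -0.20 (limma adjusted p = 0.715 and 0.383), and CANX, the membrane lectin calnexin, by -0.22 (adjusted p = 0.317). ATF4 and DDIT3, transcription factors downstream of PERK, had log2 differences of -0.36 and 0.30 and overlapping groups. TMX3, a membrane disulphide isomerase, was the partner called higher in cerebellum, at 1.17. SERPINH1, the collagen chaperone, had 26.9, 31.7 and 23.2 in cerebellum and 174, 83.6 and 450 in liver, highest on liver replicate 3. The fibroblast and smooth muscle markers also summed highest there, at 3570 against 1268 and 1195 on liver replicates 1 and 2. So did the macrophage, endothelial, lymphocyte and bile duct markers. Members differed, with MYH11, DES and KDR lowest on liver replicate 3, and CD8A, JCHAIN and SOX9 highest on another liver array. All other measured members of these lists were highest on liver replicate 3. The part of any of these lists was not tested. Partners were named after their values were seen.

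**Figure D3:**
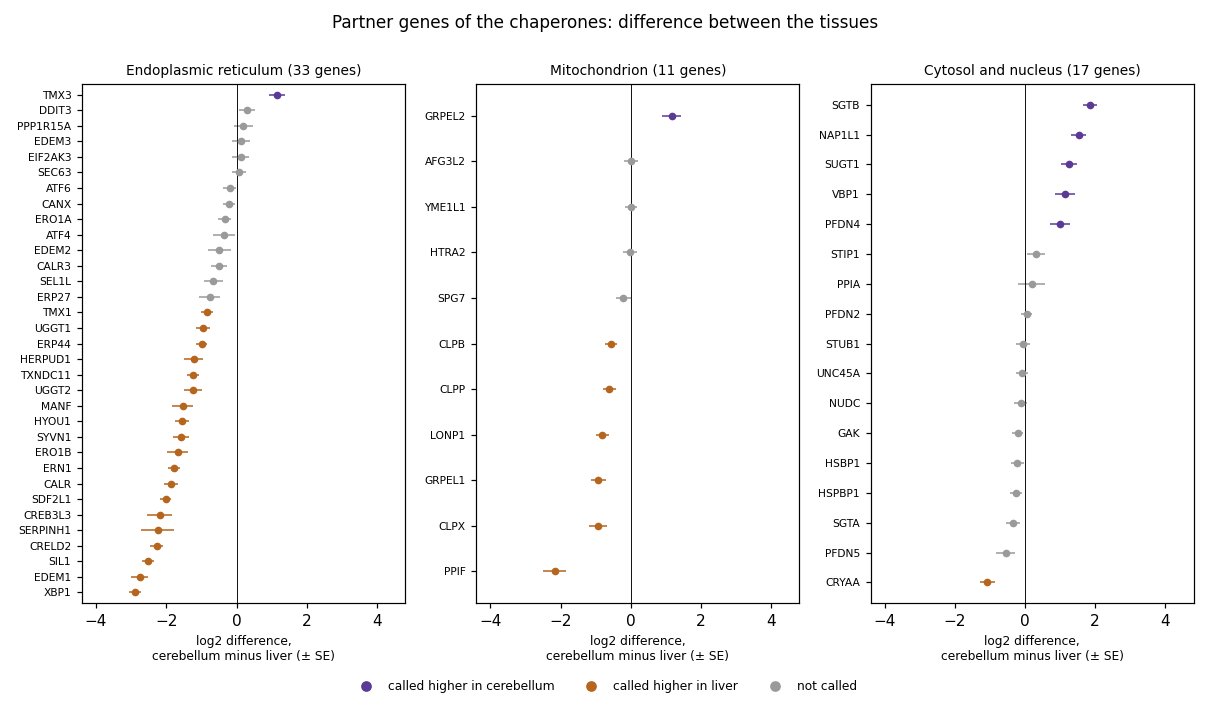
Log2 difference, cerebellum minus liver, with standard errors, for the 61 measured partner genes in 3 panels by compartment, coloured by call. Most endoplasmic reticulum partners lie left of 0, with 19 of 33 called higher in liver.

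The mitochondrial chaperones leaned toward liver, on small differences. HSPD1, the Hsp60 chaperonin of the matrix, had 861, 463 and 908 in cerebellum and 1226, 1243 and 1240 in liver. The 3 livers were almost equal, and the spread came from cerebellum replicate 2. The log2 difference was -0.78 ± 0.26 (limma adjusted p = 0.0346), and without cerebellum replicate 2 it was -0.48 (adjusted p = 0.0533). Without any 1 liver array the log2 difference stayed at -0.78 and, with fewer arrays, was not called (adjusted p from 0.0638 to 0.0863). DNAJA3, the J protein of the matrix Hsp70, had 154, 268 and 194 in cerebellum and 333, 462 and 299 in liver, and DNAJC30, a J protein of the inner membrane, had 47.3, 80.6 and 67.4 in cerebellum and 103, 138 and 97.5 in liver. Their log2 differences were -0.79 and -0.67 (limma adjusted p = 0.0264 and 0.0306). FKBP8, which is anchored in the outer membrane, was not called, at 0.11, nor was the J protein DNAJC28, at -0.42. The 3 calls were fragile. They numbered 0 without liver replicate 2, 1 without cerebellum replicate 1 or 3, 2 without any 1 of the other arrays, and 0 on the aligned scale. Of 11 mitochondrial partners 1 was called higher in cerebellum and 6 higher in liver (9.09% and 54.5%, against 26.7% and 23.9% of all features). Over the partners of all compartments, 16 of the 26 calls toward liver held on the aligned scale. The nucleotide exchange factors of the matrix Hsp70 went in opposite directions, with GRPEL1 at 97.2, 134 and 102 in cerebellum and 223, 272 and 182 in liver, and GRPEL2 at 188, 394 and 279 in cerebellum and 93.2, 131 and 119 in liver. Their log2 differences were -0.92 and 1.17 (limma adjusted p = 0.00549 and 0.00620). The proteases and unfoldases CLPP, CLPX, CLPB and LONP1 were called higher in liver, with log2 differences from -0.93 to -0.57.

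The cytosolic Hsp70 system held the strongest differences toward cerebellum of the cytosolic group. HSPA4L, an Hsp110 exchange factor, had 376, 233 and 419 in cerebellum and 9.44, 43.5 and 17.4 in liver. The lowest cerebellum array was more than 5 times the highest liver array, and the log2 difference was 3.21 ± 0.34 (limma adjusted p = 7.73e-05). The liver values of 9.44 and 17.4 lie near or below the pseudocount, so its size depends on it, with 3.48 at a pseudocount of 10.2 and 2.81 at 30.3. The paralogs of HSPA4L were not called. HSPA4 had 260, 282 and 321 in cerebellum and 433, 341 and 461 in liver, a log2 difference of -0.49 (adjusted p = 0.0559), and HSPH1 had 352, 166 and 273 in cerebellum and 486, 141 and 420 in liver, a difference of -0.28 (adjusted p = 0.635) with overlapping groups. HSPA12A, a distant member of the Hsp70 family that is known from brain, had 402, 398 and 496 in cerebellum and 46.0, 63.3 and 63.1 in liver, for a log2 difference of 2.60 ± 0.18 (limma adjusted p = 8.04e-06). Its paralog HSPA12B, known from endothelium, was at 165 ± 43.8 in cerebellum and 155 ± 26.1 in liver (SD, n = 3 each), a log2 difference of 0.06. The differences between paralogs were not themselves tested. HSPA4 and HSPA12B were named after their values were seen.

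HSPA8, the constitutive cytosolic Hsp70, was bright in both tissues, with 4537, 3964 and 4297 in cerebellum and 2673, 1568 and 3882 in liver. All cerebellum values were above all liver values, but the livers spread widely and the log2 difference of 0.74 ± 0.30 was not called (limma adjusted p = 0.0714). Without liver replicate 3 it was 1.05 (adjusted p = 0.00959), but without liver replicate 2 it was 0.40 (adjusted p = 0.194). It also stayed uncalled without any 1 of the other arrays (adjusted p from 0.110 to 0.168). HSPA2, known from testis, had 99.8, 82.5 and 36.8 in cerebellum and 13.9, 10.9 and 59.7 in liver. Replicate 3 was the lowest cerebellum and the highest liver, and the log2 difference of 1.09 was not called (adjusted p = 0.0637). The log2 difference was 1.25 at a pseudocount of 10.2 and 0.86 at 30.3, uncalled at both. Without liver replicate 3 it was 1.55 (adjusted p = 0.00585), and without cerebellum replicate 3 it was 1.42 (adjusted p = 0.0346). Without any 1 of the other arrays it was 0.82 to 0.98 and uncalled (adjusted p from 0.161 to 0.205). HSPA14, an Hsp70 relative that works at the ribosome, differed by 0.59 (adjusted p = 0.119), with overlapping groups.

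HSP90AA1, the stress-inducible cytosolic Hsp90, was higher in cerebellum, with 3493, 2020 and 3192 there and 1278, 905 and 1585 in liver. The log2 difference was 1.19 ± 0.28 (limma adjusted p = 0.00686), and the groups did not overlap. FKBP4, a prolyl isomerase that serves Hsp90 on steroid receptors, had 830, 569 and 841 in cerebellum and 557, 301 and 585 in liver. One pair of values crossed, cerebellum replicate 2 lying below liver replicate 3, and the difference of 0.65 was not called (adjusted p = 0.0873). STIP1, the adaptor between Hsp70 and Hsp90, differed by 0.31 (adjusted p = 0.353), with overlapping groups. SUGT1, another Hsp90 co-chaperone, was called higher in cerebellum, with a log2 difference of 1.26 (limma adjusted p = 0.00154). FKBP3, a nuclear prolyl isomerase named after its values were seen, had 603, 247 and 387 in cerebellum and 112, 180 and 152 in liver, a log2 difference of 1.31 ± 0.31 (adjusted p = 0.00798). Near-identical processed copies of abundant chaperone genes occur in primate genomes, so features of HSPA8, HSP90AA1, HSPD1 and their like can share signal with such copies.

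Among cytosolic J proteins, DNAJA4 had 379, 267 and 470 in cerebellum and 81.3, 75.6 and 66.2 in liver, for a log2 difference of 2.06 ± 0.22 (limma adjusted p = 9.68e-05). DNAJB5, a relative of the heat-inducible DNAJB1, differed by 1.55 ± 0.18, and DNAJB2, a J protein enriched in neurons, by 0.62 ± 0.17 (limma adjusted p = 0.000162 and 0.0161). Both were named after their values were seen, and leaving out cerebellum replicate 1, cerebellum replicate 3 or liver replicate 2 ended the call of DNAJB2 (adjusted p from 0.0573 to 0.0655). DNAJC12, which assists the aromatic amino acid hydroxylases, had 1091, 1052 and 959 in cerebellum and 539, 467 and 55.5 in liver. Liver replicate 3 stood far below the other livers. The log2 difference was 1.96 ± 0.68 (limma adjusted p = 0.0390), 1.02 without liver replicate 3 (adjusted p = 0.00209), and 1.93 to 2.02 but uncalled without any 1 cerebellum array (adjusted p from 0.0837 to 0.0955). The summed hepatocyte markers were also lowest on liver replicate 3, at 20958, against 24832 and 23966 on liver replicates 1 and 2. Members differed, with CPS1, CYP3A4 and FGB lowest on liver replicate 3 and ALB and APOB highest there. The part of these markers in the low DNAJC12 value was not tested.

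DNAJB4, a stress-inducible J protein, had 1019, 274 and 306 in cerebellum and 222, 64.3 and 181 in liver. Its log2 difference was 1.56 ± 0.55 (limma adjusted p = 0.0420), and was 0.97 without cerebellum replicate 1 and 1.08 without liver replicate 2 (adjusted p = 0.118 and 0.146). Without cerebellum replicate 3 or liver replicate 3 it was larger, at 1.81 and 1.73, and uncalled (adjusted p = 0.0510 and 0.0541). Cerebellum replicate 1, the high array, also had the highest summed oligodendrocyte markers, at 5579 against 1666 and 2252 on cerebellum replicates 2 and 3, and their part in its level was not tested. DNAJA1, a main partner of HSPA8, had 440, 219 and 380 in cerebellum and 630, 427 and 529 in liver, with overlapping groups and a log2 difference of -0.63 (adjusted p = 0.0892). DNAJB8, known from testis, was called higher in liver, at 27.2 ± 10.2 in cerebellum and 71.7 ± 23.0 in liver (SD, n = 3 each, limma adjusted p = 0.0103). The remaining 6 cytosolic J proteins were not called, with log2 differences from -0.05 for DNAJC21 to 0.43 for DNAJC7.

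**Figure D4:**
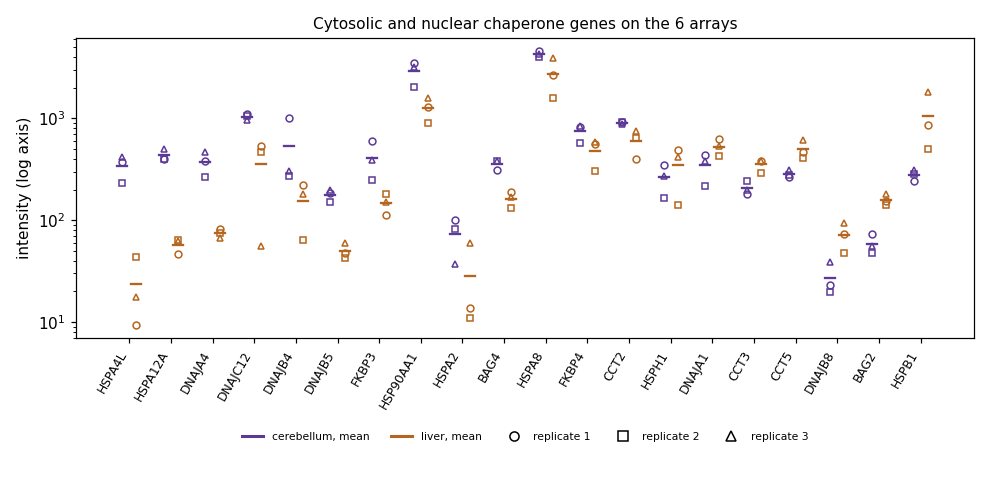
Intensity on a log axis of 20 cytosolic and nuclear genes on each array, cerebellum on the left of each pair and liver on the right, ordered by log2 difference, with symbols for the replicates and lines for the means. HSPA4L, HSPA12A and DNAJA4 lead toward cerebellum and HSPB1 toward liver, and liver replicate 3 lies apart for DNAJC12.

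The BAG proteins, which release nucleotide from Hsp70, split by member. BAG2, which inhibits the ubiquitin ligase CHIP, had 72.5, 48.1 and 56.4 in cerebellum and 155, 142 and 181 in liver, a log2 difference of -1.22 ± 0.19 (limma adjusted p = 0.000769). BAG4 and BAG5 went toward cerebellum, with log2 differences of 1.07 ± 0.19 and 0.81 ± 0.22 (limma adjusted p = 0.00172 and 0.0135). BAG1 and BAG3 overlapped between the tissues, at -0.29 and -0.05. BAG1, BAG3, BAG4 and BAG5 were named after their values were seen. STUB1, which encodes CHIP, differed by -0.07 (adjusted p = 0.806).

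Of the small heat shock proteins, which hold unfolded proteins without ATP, HSPB1 had 240, 284 and 311 in cerebellum and 859, 499 and 1805 in liver. The groups did not overlap, and the liver values spread over more than 3-fold. The log2 difference was -1.67 ± 0.40 (limma adjusted p = 0.00810) and -1.19 without liver replicate 3 (adjusted p = 0.00647). Liver replicate 3, the highest, also had the highest summed fibroblast and smooth muscle markers given above. Of these markers, MYH11 and DES were lowest there. The macrophage, endothelial, lymphocyte and bile duct markers summed highest there too, but KDR was lowest there, and CD8A, JCHAIN and SOX9 were highest on another liver array. The part of any of these in the level of HSPB1 was not tested. HSPB3, HSPB6 and HSPB7, known from muscle, were dim, with mean intensities between 9.32 and 28.5 in cerebellum and between 11.2 and 29.2 in liver, and were not called. CRYAA, the lens small heat shock protein among the partners, was listed at 126, 107 and 115 in cerebellum and 255, 207 and 339 in liver, and was called higher in liver (limma adjusted p = 0.00259).

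The chaperonin CCT is a ring of related subunits that folds actin and tubulin. Of 8 CCT genes measured, 0 were called higher in cerebellum, against 26.7% of all features, and 2 higher in liver (25%, near the 23.9% of all features). The log2 difference was above 0 for 5 of the 8. CCT3 had 181, 245 and 198 in cerebellum and 379, 293 and 384 in liver, and CCT5 had 266, 277 and 313 in cerebellum and 462, 412 and 610 in liver. Both were called higher in liver, with log2 differences of -0.72 ± 0.19 and -0.74 ± 0.19 (limma adjusted p = 0.0136 and 0.0120). CCT2 had 914, 915 and 883 in cerebellum and 396, 635 and 758 in liver. Its groups did not overlap either, but the log2 difference of 0.63 ± 0.24 was not called (adjusted p = 0.0560). Without liver replicate 3, CCT2 and CCT4 were called higher in cerebellum, at 0.83 and 0.55 (limma adjusted p = 0.0177 and 0.0446). CCT2 was not called without any 1 of the other arrays (adjusted p from 0.0869 to 0.129), and fell to 0.37 without liver replicate 1. CCT4, CCT6A, CCT7 and CCT8 lay between -0.03 and 0.42 and were not called, and CCT6B, a testis form, was dim. On the aligned scale the calls of CCT3 and CCT5 were lost (log2 differences -0.22 and -0.25) and CCT2, CCT4, CCT6A and CCT7 were called higher in cerebellum. The call of CCT3 was also lost without cerebellum replicate 1 or 3 (adjusted p = 0.0582 and 0.0559). The prefoldin subunits VBP1 and PFDN4, which deliver clients to CCT, were called higher in cerebellum, with log2 differences of 1.14 and 0.99 (limma adjusted p = 0.00879 and 0.0202), while PFDN2 and PFDN5 were not, at 0.05 and -0.55.

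The largest difference of all 74 genes was that of DNAJC6, which encodes auxilin, the J protein that has HSPA8 strip clathrin from vesicles and that neurons use at synapses. It had 1021, 1028 and 1060 in cerebellum and 44.6, 37.8 and 53.6 in liver. The log2 difference was 4.09 ± 0.17 (limma adjusted p = 4.49e-07). GAK, the auxilin that all cells use, had 171, 177 and 165 in cerebellum and 208, 186 and 205 in liver, a difference of -0.21 that was not called (adjusted p = 0.303). DNAJC13, a J protein of endosomes, differed by -0.39 (adjusted p = 0.0949), and DNAJC5B was dim and not called. Of the genes with an uncertain place, DNAJC27, which joins a Rab-like GTPase to a J domain, had 153, 164 and 134 in cerebellum and 23.3, 31.2 and 33.2 in liver, for a log2 difference of 1.86 ± 0.17 (limma adjusted p = 4.05e-05). DNAJC22, a membrane J protein, had 9.71, 8.92 and 8.10 in cerebellum and 157, 81.9 and 172 in liver, a log2 difference of -2.53 ± 0.25 (limma adjusted p = 6.12e-05) whose size depends on the pseudocount. HSF4, a heat shock factor known from the lens, had 117, 71.3 and 120 in cerebellum and 43.2, 24.8 and 42.7 in liver, for a log2 difference of 1.15 ± 0.24 (limma adjusted p = 0.00409). HSF2BP, known from meiosis, was not called, at 0.56 (adjusted p = 0.0616). DNAJC4, DNAJC5G and the pseudogene DNAJA1P5 were not called either, with log2 differences of -0.39, -0.01 and 0.39.

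Chaperone genes also varied between the arrays of a tissue. The pattern by replicate number was noticed in the values and is given as a description. Of the 74 genes, 19 (25.7%) were lowest on replicate 2 in both tissues, against 13.0% of all features, and 14 of these 19 were cytosolic or nuclear. Another 12 of the 74 (16.2%) were highest on replicate 2 in both tissues, against 14.9% of all features. Replicate 2 was not the only one to depart, since 24.4% of the cytosolic and nuclear genes were highest on replicate 3 in both tissues, against 7.84% of all features, and 22.0% were lowest on replicate 1, against 12.6%. Those lowest on replicate 2 included HSPH1, HSP90AA1, HSPA8, FKBP4, DNAJA1, DNAJB4, BAG2 and CCT4. Relative to the mean of the other 2 arrays, HSPH1 on replicate 2 lay at -0.84 in cerebellum and -1.57 in liver (log2), HSP90AA1 at -0.72 in cerebellum and -0.64 in liver, DNAJB4 at -0.99 in cerebellum and -1.42 in liver, and HSPA8 at -0.16 in cerebellum and -1.03 in liver. BAG3 lay at -1.08 in cerebellum and -0.29 in liver, where replicate 1 was lower. For all features the median of this shift was -0.01 in cerebellum and 0.01 in liver. The immediate-early and acute stress markers had summed intensities of 898, 932 and 955 in cerebellum and 3277, 3556 and 3540 in liver, but members differed. Of the 9 measured, 1 (JUN) was lowest on replicate 2 in both tissues, against 13.0% of all features. GADD45B was highest on replicate 2 in both tissues. Mitochondrial genes lay on the other side, with 4 of 5 chaperones (DNAJA3, DNAJC28, DNAJC30 and FKBP8) and 8 of 11 partners highest on replicate 2 in both tissues. HSPD1 was the exception, with its lowest cerebellum value on replicate 2. Endoplasmic reticulum genes had 3 of 18 lowest and 0 highest on replicate 2 in both tissues. Replicate 2 was the oldest animal by the labels and replicate 1 the 1 female, and with 1 array per tissue and number these cannot be told apart from other differences between arrays.

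**Figure D5:**
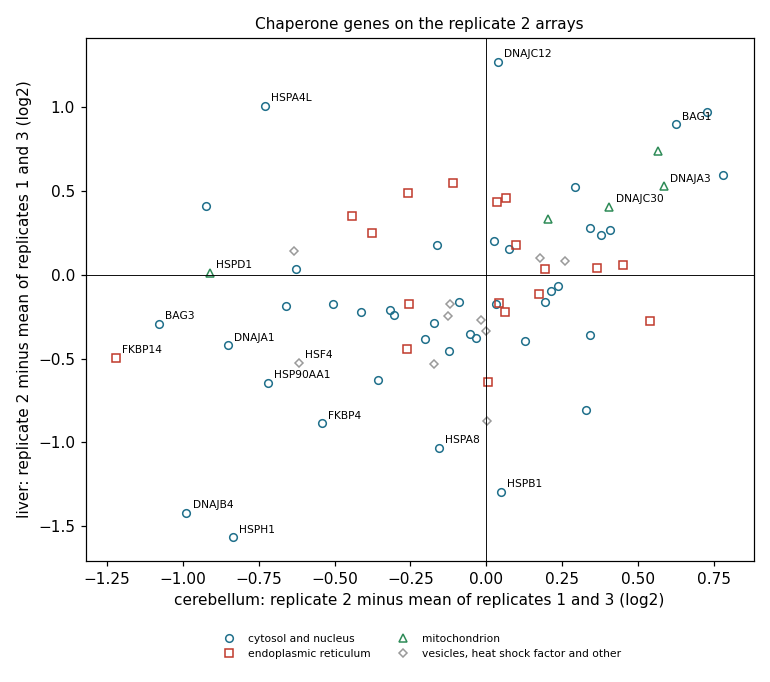
Shift of the replicate 2 array from the mean of replicates 1 and 3 on the log2 scale, in cerebellum (horizontal axis) and liver (vertical axis), for the 74 chaperone genes, with symbols by compartment. HSPH1 and DNAJB4 lie far down on the left, low on replicate 2 in both tissues, while 4 of 5 mitochondrial genes lie in the upper right.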

How the data were processed

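The authors deposited 1 linear intensity per array for each of 15143 features on 6 arrays. Per the submitters' processing notes the software was GCOS, without a version. How background was corrected and probes were summarised, and whether probes were chosen to match both species, is not given in the sources used here. Across arrays, sorted values were identical, so the deposited intensities had been quantile normalized, and 93 values per array lay below 0. The number of arrays limits the precision. The annotation of the platform gave 1 symbol to 12685 features, several to 1780 and none to 678, and features with several symbols name no gene here. Where rows shared a symbol, the brightest over the 6 arrays was kept.

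Values below 0 were set to 0, and log2(intensity + 16.8), with the 10th percentile of all values as the pseudocount, was compared between 3 cerebellum and 3 liver arrays with limma 3.58.1 in R 4.3.3 (lmFit and eBayes, two-sided, no block, no filter). P values set the difference between tissues against the spread among the arrays of each tissue, as moderated by limma over all features. That spread holds differences between animals and between arrays, which cannot be told apart. With 3 arrays per tissue the smallest two-sided p of an exact permutation test is 0.1, and no such test is given. The 74 genes, their compartments, the partner list and the marker lists were chosen with earlier results of these data known. The places of HSF2BP and DNAJA1P5 were set after the files were read. In simulated data with 15143 features, the fit recovered 27 of 100 features given a log2 change of 1. It recovered 79 of 100 given a log2 change of 2, and made 4 false calls. Few features were changed in the simulation, whereas 50.6% of all features were called on the real arrays. The Benjamini-Hochberg adjustment is stricter when few features change, so the simulation cannot tell how many real differences of these sizes were missed.

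The rule for named genes took up to 5 called genes per compartment and direction with the largest difference and no overlap, the HSF and Hsp90 genes measured, HSPH1, HSPA8, HSPA2, HSPA5, HSPD1, FKBP4, the extreme CCT subunits and the 5 uncalled genes of largest difference, 30 in all. Any other gene or partner named, with or without values by array, was chosen after its values were seen. Alternatives were a replicate block, pseudocounts at the 5th and 20th percentile, no dim features, alignment on general genes, averaging rows of a symbol and leaving out each array. A planned description of promoter motifs and protein ends was not made here.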

Additional observations from a re-analysis of the deposited data

How the results depend on the processing

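With arrays aligned on general genes, calls toward cerebellum numbered 33 in place of 15 among all 74 genes, 24 in place of 11 in the cytosolic and nuclear group and 4 in place of 1 in the endoplasmic reticulum group. Calls toward liver numbered 12 in place of 19, 2 in place of 5 in the cytosolic and nuclear group, 0 in place of 3 among mitochondrial genes, and 16 in place of 26 among partners. The alignment moves every difference toward cerebellum, so these changes are built in. It turned HSPH1, which was not called, to 0.21. When single arrays were left out, the 74 genes gave 12 to 19 calls toward cerebellum and 15 to 17 toward liver, the cytosolic and nuclear group 8 to 14 and 4 to 6, the endoplasmic reticulum group 1 to 2 and 9 in each case, mitochondrial genes 0 to 2 toward liver, and partners 6 to 7 and 23 to 29. The uncalled difference of HSPH1 then ranged from -0.80 to 0.0343, and stood at 0.00123 without cerebellum replicate 2 and 0.0343 without liver replicate 1. The pseudocounts, the removal of dim features, the averaging of rows and the replicate block kept these counts within 1.5 times. With a replicate block, 19 genes were called toward cerebellum and 19 toward liver, among them HSPA8, FKBP4 and DNAJA1 (limma adjusted p = 0.0472, 0.0264 and 0.0344). Same-numbered arrays deviated together with r = 0.112, 0.164 and -0.144, so the numbers were not taken as pairs. Among the 13 dimmest genes only DNAJB8 was called, and low signal limits what can be seen there. The planned description of promoter motifs and protein ends was not run.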
